A study of Mus musculus with 9 samples.

Results

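Normoxia, the oxygenated culture that serves as the control of a deprivation experiment, was followed over time by setting its 3 h and 6 h libraries against its 1 h library. These are 3 of 9 libraries, taken by their labels. Of 675 genes in the deposited table, 580 had a mean of at least 1 FPKM (fragment counts corrected for transcript length and for library size) over the 9 libraries and were analysed. The cells were wild-type mouse brain microvascular endothelial cells (MBMECs), the cells that line brain capillaries, given as a cell line. The 9 groups of 1 library were normoxia, OGD (no oxygen, glucose or serum) and OGD+Oba (the same with 3 µM of the limonoid obacunone), each at 1, 3 and 6 h. With 1 library per group, a change with time and a difference between libraries cannot be told apart, and what was done to the medium at the start is not given in the sources used here.

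A cell that is handled, moved or given fresh serum switches on immediate early genes through kinases that act on factors already present. The products are mostly transcription factors, followed by phosphatases and RNA-binding proteins that shut the response down. Their messages are short lived, and in many the 3′ end carries AU-rich elements that speed decay. Genes that need time to accumulate, such as those of secreted proteases and adhesion proteins, change more slowly.

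Summed over the listed genes, which is not a depth, FPKM came to 17091.6 in the normoxia library of 1 h, 15114.3 in that of 3 h and 14858.3 in that of 6 h. Per the authors' deposited table, OGD at 6 h was at least 2-fold above normoxia for 350 of the 675 genes and at least 2-fold below it for the other 325. The normoxia 6 h library therefore took part in the choice of genes, while the 1 h and 3 h libraries did not. Of 21 endothelial markers, the barrier glucose transporter Slc2a1 alone passed the floor, at 134.8, 107.5 and 71.2 FPKM at the 3 times in order, and the receptor Flt1 was listed at 0.23, 0.37 and 0.68 FPKM. Of 15 epithelial markers, the claudin Cldn4 passed it at 138, 97.6 and 60.9 FPKM and the transcription factor Elf3 at 42.9, 91.5 and 75.0 FPKM. The astrocyte marker Aldoc was at 3.97, 3.96 and 3.11 FPKM and the neuronal marker Tubb3 at 7.17, 10.7 and 10.2 FPKM. The remaining markers of these cells, and those of mural cells, fibroblasts, microglia and oligodendrocytes, were not analysed here. Each listed gene had at least a 2-fold response to deprivation, so a marker that is missing from the list may still be expressed. Among the few listed markers, Flt1, which was near 0, and both epithelial genes go against the label, while Slc2a1 does not. So few genes, chosen by their response, cannot decide the cell type, and the cells are called here by their label alone. In bulk RNA, fewer cells of a type and less RNA per cell cannot be told apart.

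Between normoxia at 3 h and 1 h, immediate early genes such as Fos and Egr1 and the chemokine genes Cxcl1 and Cxcl2 were far lower, and a smaller number of genes, among them the plasminogen activator gene Plat, were higher. A gene was counted when its log2(FPKM + 1) differed by at least 1, a 2-fold difference on that scale. By that count 16 genes were higher at 3 h (2.76% of those analysed) and 31 lower (5.34%). A limma test, which takes its error from how OGD and OGD+Oba differ at each time, called 33 genes that rose (5.69%) and 74 that fell (12.8%) at an adjusted p of 0.05. The error is what is left of those differences after 1 obacunone effect common to the times, and the normoxia libraries add none. The test assumes that a lone normoxia library varies as the deprived ones do, and its p-values measure no spread between normoxia libraries. With median-ratio scaling, whose factors come from the listed genes alone, 26 rose and 40 fell, and without limma's variance trend 18 and 48. The median difference over the 580 genes was -0.08 and the median size 0.32.

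At 6 h against 1 h, 21 genes were higher by the same measure (3.62%) and 64 lower (11%), and limma called 69 that rose (11.9%) and 127 that fell (21.9%). Median-ratio scaling moved the median of all genes by 0.20 here and turned these splits to 43 higher and 42 lower, and to 132 that rose and 89 that fell. At 6 h against 3 h, 5 genes were higher (0.862%) and 13 lower (2.24%), or 12 and 11 after that scaling, which moved the median by 0.14. Limma called 12 genes that rose (2.07%) and 34 that fell (5.86%) from 3 h on; it called 3 in all with median-ratio scaling (Ccl2, Cxcl10 and Rapgef3) and 1 without its variance trend (Cxcl10). The other calls between 3 h and 6 h, those named below included, were lost under both settings.

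By these differences, 27 genes were at least 2-fold lower at both later times (called settled low here), 37 were so only at 6 h (late low) and 4 only at 3 h (dip). In the other direction 11 were settled high, 10 late high and 5 higher only at 3 h (bump). With median-ratio scaling there were 21 late low and 29 late high genes, 8 dip and 3 bump, so the late sets turned from mostly lower to mostly higher. The other 486 stayed within 2-fold of their 1 h level. Settled low genes had covered a median of 102.1% of their 6 h change by 3 h, and late low genes 44.3%. This contrast is largely set by the 3 h limit that defines the sets. The genes nearest the 2-fold limit at 3 h were the kinases Dyrk3 and Plk3, at -1.04 and -0.99, and Tmem220 and Shpk, at 1.02 and 0.99. At 6 h they were Stc1 and Bhlhe40, at -1.01 and -0.99, and Tcta and Pmp22, at 1.01 and 0.97.

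**Figure D1:**
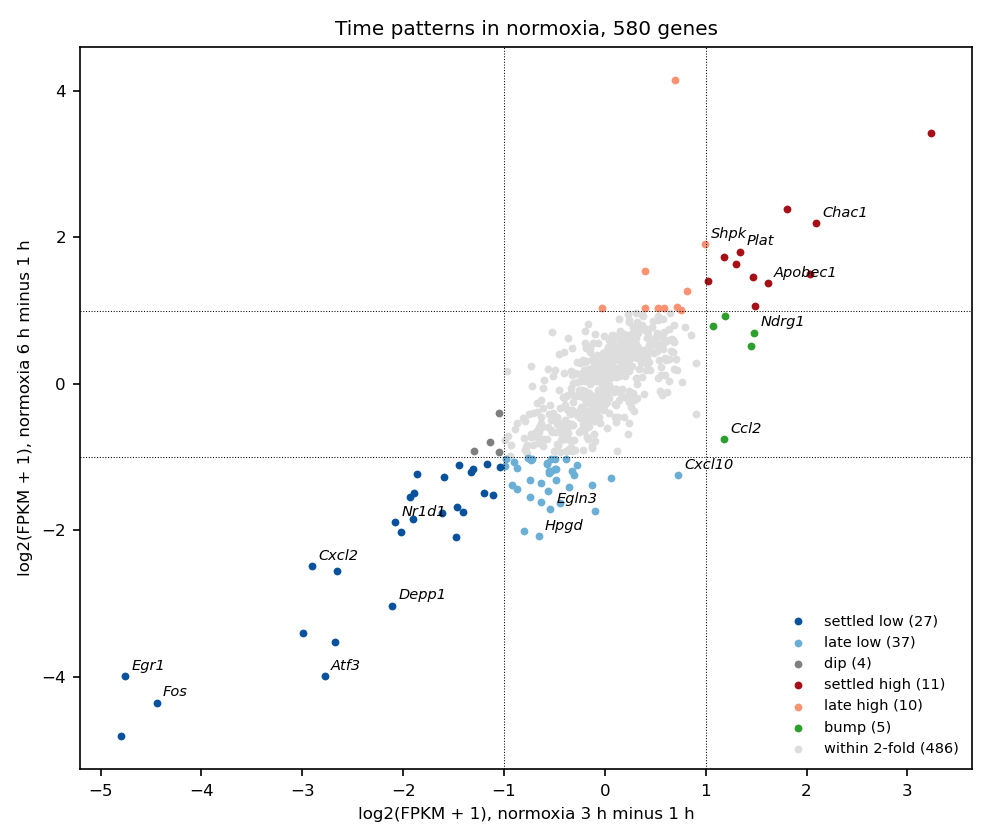
Each point is 1 of 580 genes, with the normoxia difference of log2(FPKM + 1) at 3 h minus 1 h on the x axis and at 6 h minus 1 h on the y axis; dotted lines mark 2-fold and colours the sets, with their counts. Both axes use the 1 h library, so points lie along the diagonal in part by construction; Egr1 and Fos lie lowest among the labelled genes and Chac1 highest.

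Immediate early genes were among the steepest falls. Of 24 on the list, 10 were analysed; 8 fell and none rose at 3 h, against 12.8% and 5.69% of all genes, and 9 fell at 6 h. Their median difference was -1.62 at 3 h and -1.42 at 6 h, against -0.08 and -0.06 for all genes. With median-ratio scaling 6 immediate early genes fell at 3 h and 7 at 6 h, and without the trend 6 and 9. These members are the ones that passed the selection of the table, and the lists were drawn up with earlier results of these data known. Of the 316 analysed genes that the authors give as up under OGD at 6 h, 68 fell at 3 h and 123 at 6 h. These shares are larger than those over all genes. Counts set against all genes, here and in the lists below, may thus owe a part to the choice of genes.

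Fos, a subunit of the AP-1 transcription factor (gene 14281, chr12:85473890-85477274, GRCm38.p6), stood at 105.5 FPKM at 1 h, 3.89 FPKM at 3 h and 4.21 FPKM at 6 h; values below are in that order of time. It fell by 4.44 ± 0.32 (log2, SE) at 3 h against 1 h (limma, adjusted p = 0.000171). Egr1, a zinc finger factor of the same wave, stood at 179, 5.65 and 10.3 FPKM and fell by 4.76 ± 0.17 (adjusted p = 3.6e-06). Both were high at 1 h alone in normoxia, and Egr1 rose again by 0.77 ± 0.17 between 3 h and 6 h (adjusted p = 0.031; 0.116 with median-ratio scaling and 0.113 without the trend). Fosb, a relative of Fos (gene 14282, chr7:19302696-19310118), stood at 12.5, 1.11 and 0.17 FPKM, and fell by 2.68 ± 0.25 at 3 h (adjusted p = 0.000333). Atf3, a stress-induced repressor of the CREB family (gene 11910, chr1:191170296-191183333), stood at 224, 31.9 and 13.2 FPKM. It fell by 2.78 ± 0.16 at 3 h (adjusted p = 6.43e-05) and by a further 1.21 ± 0.16 at 6 h (adjusted p = 0.00461), a step at which Fos and Egr1 did not fall. Ier3, an early gene that modulates survival signals, stood at 148, 38.0 and 50.2 FPKM and fell by 1.93 ± 0.15 at 3 h. Junb, another AP-1 subunit, stood at 130.5, 52.4 and 68.7 FPKM, a dip rather than a settled fall, with a difference of -1.30 ± 0.14 at 3 h and -0.92 ± 0.14 at 6 h. Nr4a1, an orphan nuclear receptor, and Maff, a small basic zipper factor, reached the 2-fold limit only at 6 h, with differences of -1.31 ± 0.25 and -1.20 ± 0.14. Maff was already among the genes that fell at 3 h, by 0.53. Fosl2 was the member with no call at either time, at 9.5, 8.42 and 11.1 FPKM.

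No promoter stretch is printed for Egr1, the list member that fell most at 3 h. Those of Fos and Atf3, also among the list's steepest fallers, are shown up to the gene's outermost start. Each runs 5′ to 3′ over the 150 bases before the start in RefSeq GRCm38.p6, on chr12:85473740-85473889 (plus strand) and chr1:191183334-191183483 (minus strand). Capitals mark TGACG, the core of the cyclic AMP response element, on either strand (CGTCA on the other) and TATAAA on the gene's own strand.
Fos: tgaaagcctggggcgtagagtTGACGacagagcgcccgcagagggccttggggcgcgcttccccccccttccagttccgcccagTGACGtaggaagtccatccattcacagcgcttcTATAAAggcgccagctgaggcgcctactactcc
Atf3: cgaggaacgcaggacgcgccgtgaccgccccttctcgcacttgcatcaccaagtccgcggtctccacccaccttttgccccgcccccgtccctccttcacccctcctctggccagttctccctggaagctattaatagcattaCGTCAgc
The Fos stretch holds TGACG at 129 to 125 and at 66 to 62 bases before the start and TATAAA at 33 to 28, and the Atf3 stretch holds the core on the other strand at 7 to 3. In windows from 250 bases before to 50 after a start, the core was found in 8 of 11 windows of the list (72.7%). The share was 20.8% of all 32851 RefSeq windows and 23.5% of the 605 windows found for 480 of the 580 genes analysed. A gene with several starts has several windows. TATAAA was in 18.2% of the list's windows and 8.3% of all. The CArG box of serum response factor was in none of the list's and 1.6% of all. The list's 11 windows cover 9 of its 10 analysed members, and bases further than 250 before a start were not searched. A match is a description of the letters in these windows.

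Genes that damp this wave were lower as well. Of 23 delayed feedback genes 10 were analysed, of which 6 fell at 3 h and 8 at 6 h, against 12.8% and 21.9% of all genes (medians -0.73 and -0.80). With median-ratio scaling 4 fell at 3 h and 6 at 6 h, and without the trend 5 and 8. In the authors' up group at 6 h, 68 and 123 of 316 genes fell at these times. Zfp36, which binds AU-rich elements and speeds message decay, stood at 109, 28.4 and 29.7 FPKM and fell by 1.90 ± 0.16 at 3 h (limma, adjusted p = 0.000211). The MAP kinase phosphatase Dusp1 stood at 303, 153 and 148 FPKM and fell by 0.98 ± 0.10 at 3 h (adjusted p = 0.000491). Its relative Dusp5 stood at 51.4, 26.6 and 28.5 FPKM, and the serum- and glucocorticoid-induced kinase Sgk1 at 706, 404 and 423 FPKM. In all 4 the level at 3 h was close to that at 6 h. Areg, an EGF receptor ligand, instead declined late, at 7.22, 5.05 and 1.67 FPKM, and fell by 1.62 ± 0.22 at 6 h against 1 h (adjusted p = 0.00128).

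Inflammatory genes split by time. Of 21 NF-kB and inflammatory genes 10 were analysed. At 3 h 4 fell and 1 rose, with a median of -0.64, and at 6 h 7 fell and 1 rose, with a median of -1.0. Of all genes 12.8% fell and 5.69% rose at 3 h, and 21.9% and 11.9% at 6 h. In the authors' up group at 6 h, 68 of 316 genes fell at 3 h and 123 at 6 h. The neutrophil chemokine Cxcl1 (gene 14825, chr5:90891245-90893121) stood at 91.9, 13.8 and 14.9 FPKM and fell by 2.65 ± 0.20 at 3 h (limma, adjusted p = 0.000171). Its neighbour Cxcl2 (gene 20310, chr5:90903899-90905938) stood at 23.5, 2.28 and 3.36 FPKM and fell by 2.90 ± 0.23 (adjusted p = 0.000173). The inhibitors Nfkbia, which holds NF-kB in the cytoplasm, and Nfkbiz, a nuclear member of that family, fell by 1.19 ± 0.15 and 1.60 ± 0.29. These 4 were high at 1 h and low at both later times.

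The monocyte chemokine Ccl2 (gene 20296, chr11:82035577-82037452) had its highest level at 3 h, at 20.98, 48.8 and 12.1 FPKM. It rose by 1.18 ± 0.23 at 3 h against 1 h (adjusted p = 0.0112) and fell by 1.93 ± 0.23 at 6 h against 3 h (adjusted p = 0.00461; 0.0643 without the variance trend). The interferon-induced chemokine Cxcl10, at 2.02, 4 and 0.27 FPKM, was highest at 3 h too. It fell by 1.98 ± 0.24 at 6 h against 3 h (adjusted p = 0.00461), while its difference of 0.73 ± 0.24 at 3 h against 1 h missed the test. The leukocyte adhesion molecule Icam1, at 7.80, 10.7 and 13.6 FPKM, was the one member that rose at 6 h, by 0.73 ± 0.21 (adjusted p = 0.0305).

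The 150 bases before the starts of Cxcl1 and Cxcl2, which lie beside each other and fell alike, are shown for their shared NF-kB match (RefSeq GRCm38.p6, chr5:90891095-90891244 and chr5:90903749-90903898, both plus strand, 5′ to 3′). Capitals mark 2 overlapping matches of the NF-kB consensus, 1 on each strand.
Cxcl1: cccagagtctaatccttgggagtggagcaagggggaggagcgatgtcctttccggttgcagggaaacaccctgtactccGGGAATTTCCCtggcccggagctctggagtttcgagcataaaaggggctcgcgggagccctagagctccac
Cxcl2: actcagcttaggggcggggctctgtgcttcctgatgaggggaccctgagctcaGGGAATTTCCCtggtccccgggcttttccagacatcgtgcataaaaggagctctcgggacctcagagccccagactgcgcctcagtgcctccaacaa
The same 11 letters stand 71 to 61 bases before the start in Cxcl1 and 97 to 87 before it in Cxcl2. A match was present in 6 of the list's 10 windows (60%), which cover 8 of its 10 analysed genes. It was in 54.5% of the immediate early windows and in 28.6% of those of settled low genes, which cover 24 of 27. The share was 8.5% over all RefSeq windows and 11.4% over those of the genes analysed. The NF-kB list was made of genes tied to that factor, so its share follows in part from how it was made. It says nothing about the change in normoxia.

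Targets of HIF-1, the factor that oxygen destabilises, were lower at the later times in normoxia. Of 31 on the list, 23 were analysed. At 3 h 10 fell and 1 rose, and at 6 h 16 fell and 1 rose. With median-ratio scaling 8 fell at 3 h and 13 at 6 h, and without the trend 8 and 16. The medians were -0.54 and -0.86 (the 6 h one -0.63 with median-ratio scaling). Of all genes 12.8% fell at 3 h and 21.9% at 6 h. Of the 316 that the authors' deposited table gives as up under OGD at 6 h, 68 fell at 3 h and 123 at 6 h, with a median of -0.50 at 6 h. Depp1, a FOXO and hypoxia target tied to autophagy (gene 213393, chr6:116650684-116652847), stood at 47.0, 10.1 and 4.88 FPKM. It fell by 2.11 ± 0.21 at 3 h and by 3.03 ± 0.21 at 6 h against 1 h (limma, adjusted p = 0.000449 and 8.41e-05). Cited2, which competes with HIF-1 for its coactivator, stood at 46.7, 16.2 and 13.8 FPKM and fell by 1.47 ± 0.12 at 3 h. Vegfa, the main endothelial growth factor, and the hypoxia-induced ankyrin repeat gene Ankrd37 also fell at 3 h, by 1.33 ± 0.18 and 1.48 ± 0.24. The oxygen-sensing hydroxylase Egln3 (gene 112407, chr12:54178981-54203874) stood at 62.6, 42.7 and 18.4 FPKM and reached the 2-fold limit only at 6 h. It fell by 0.54 at 3 h and by 1.17 ± 0.11 between 3 h and 6 h (adjusted p = 0.00461 for the latter). The collagen hydroxylase P4ha1 stood at 66.8, 39.4 and 26.3 FPKM, each time below the time before.

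The exception was Ndrg1, a stress-responsive gene of the same list (gene 17988, chr15:66929318-66969641), which stood at 7.03, 21.5 and 12.04 FPKM. It rose by 1.48 ± 0.17 at 3 h (adjusted p = 0.000776) and fell by 0.78 ± 0.17 at 6 h against 3 h (adjusted p = 0.0299). The HIF-1 core ACGTG, searched on both strands, was in 17 of the 29 windows of the list (58.6%), which cover 20 of its 23 analysed genes. The share was 19.6% of all RefSeq windows and 26.8% of those found for the genes analysed. The list was made of known HIF-1 targets, so its share follows in part from how it was made. It says nothing about the change in normoxia.

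Clock genes were lower by 3 h. Of 17 clock genes 6 were analysed and 5 fell at both later times, against 12.8% and 21.9% of all genes (medians -0.94 and -1.05). In the authors' up group at 6 h, 68 of 316 genes fell at 3 h and 123 at 6 h. With median-ratio scaling 3 clock genes fell at 3 h. Nr1d1 (REV-ERBα), a repressor in the circadian loop (gene 217166, chr11:98767932-98775377), stood at 13.96, 2.54 and 3.05 FPKM and fell by 2.08 ± 0.17 at 3 h (limma, adjusted p = 0.000211). Nfil3, a repressor of the same target sites that Dbp activates, stood at 17.5, 5.77 and 7.57 FPKM, and Dbp at 1.61, 0.36 and 0.32 FPKM. Bhlhe40, also a repressor in the loop and a hypoxia target, fell by 0.94 ± 0.09, and Cry2, at 3.64, 4.13 and 2.97 FPKM, was not called. The Notch target Hes1 stood at 28.7, 7.14 and 11.7 FPKM and fell by 1.87 ± 0.17 at 3 h (adjusted p = 0.000333). Each of the genes that fell here was highest at 1 h among the normoxia libraries.

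Growth arrest and stress lists gave mixed counts. The shares over all genes were 12.8% fallen and 5.69% risen at 3 h, and 21.9% and 11.9% at 6 h. In the authors' up group at 6 h, 68 of 316 genes fell at 3 h and 123 at 6 h. Of 8 FOXO and growth factor withdrawal genes analysed of 18, 3 fell at 3 h and 5 at 6 h (medians -0.39 and -0.66). The lists share members, so their counts are not separate. Depp1 and Cited2 are HIF-1 targets too, Cdkn1b and Ccng2 are also brakes, and Ddit4 is on the HIF-1 and ATF4 lists. Of 5 cell cycle brakes and p53 targets of 16, 2 fell at 3 h and all 5 at 6 h (medians -0.13 and -0.85). With median-ratio scaling 3 FOXO genes fell at 6 h, and no brake gene fell at 3 h and 2 at 6 h. Gadd45b, a stress sensor in that list, stood at 13.7, 5.81 and 4.15 FPKM, whereas the cyclin Ccng2, which restrains the cycle, stood at 29.9, 32.7 and 15.3 FPKM and fell by 1.05 ± 0.12 only after 3 h. Of 6 ATF4 and unfolded protein response genes of 21, 2 rose and 2 fell at both times. Ppp1r15a, which restores translation after stress, stood at 70.7, 22.4 and 20.1 FPKM and fell by 1.61 ± 0.19 at 3 h, and Ddit4, an mTOR inhibitor, dipped to 60.5 FPKM at 3 h, against 126 FPKM at 1 h. Chac1, which degrades glutathione (gene 69065, chr2:119351242-119354326), stood at 0.78, 6.58 and 7.17 FPKM and rose by 2.09 ± 0.24 at 3 h (limma, adjusted p = 0.000776). Trib3, an ATF4-induced pseudokinase, stood at 7.15, 17.6 and 14.5 FPKM and rose by 1.19 ± 0.17 at 3 h (adjusted p = 0.00236). This list thus held members that rose and members that fell.

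**Figure D2:**
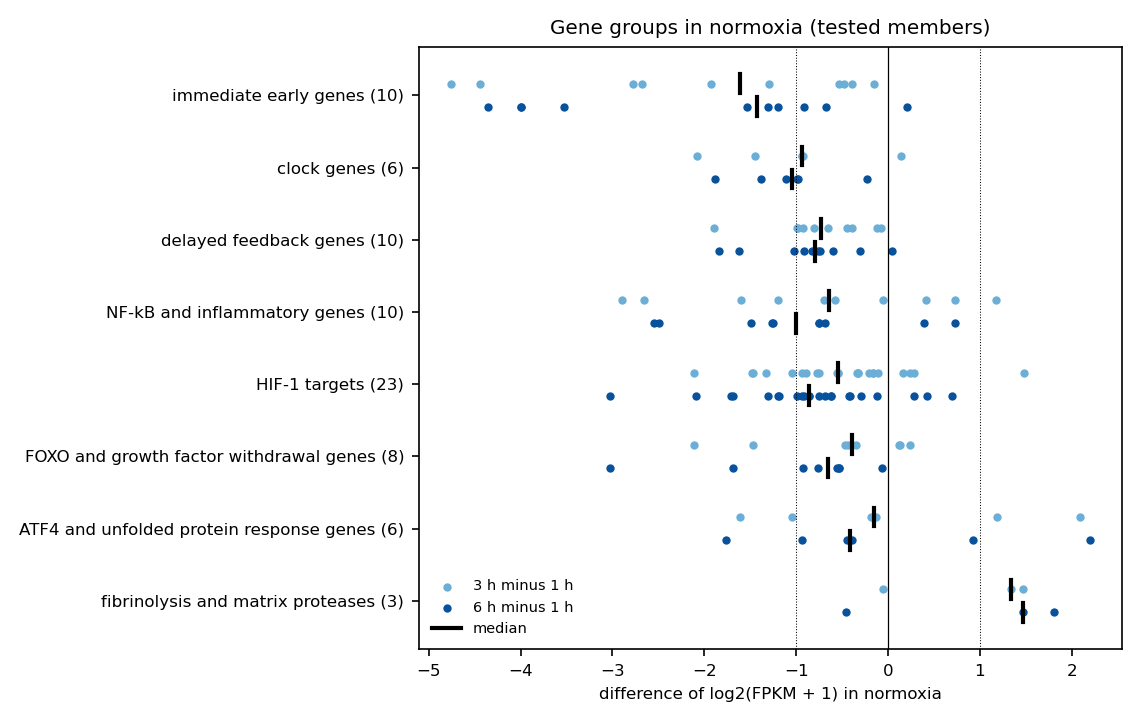
Differences of log2(FPKM + 1) in normoxia, on the x axis, for the analysed members of 8 lists (number in brackets); light points are 3 h minus 1 h, dark points 6 h minus 1 h, black bars medians and dotted lines 2-fold. Immediate early genes reach furthest to the left, with a median of -1.62 at 3 h, and 2 of the 3 protease genes lie beyond 1.

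Shorter lists held fewer members, and counts this small are not read as results about a list. The shares over all genes were 12.8% fallen and 5.69% risen at 3 h, and 21.9% and 11.9% at 6 h. Of 4 NRF2 and heme genes of 14, Sqstm1 rose by 0.29 ± 0.08 at 3 h, and Tfrc and Hmox1 fell at 6 h; the list median at 3 h, -0.06, turned to 0.01 with median-ratio scaling. Of 4 glucose-sensing genes of 8, Arrdc3 and Txnip fell at 3 h and 6 h and Arrdc4 rose at 6 h, by 0.88 ± 0.21. Of 6 glycolytic genes of 20, Hk2 fell at 3 h and Hk2 and Pfkl at 6 h. Of 3 YAP targets of 10, the matricellular protein Ccn2 rose at 3 h, at 813, 1108 and 927 FPKM, and Amotl2 at 6 h. Of 5 autophagy genes of 20, 1 rose at 3 h and 2 fell at 6 h. Of 4 histone genes of 19, 1 fell at 3 h and 3 at 6 h, and the member H3c10 was listed at 0 in every normoxia library. H3c14, at 3.07 FPKM at 1 h, was listed at 0 at 3 h and 6 h, so no fold is given; all its 31-base words occur in other genes. Of 4 tight junction genes of 18, Cldn4 fell at both times, to 97.6 and 60.9 FPKM against 138 FPKM at 1 h, and Cldn9 rose at 6 h, by 0.88 ± 0.22. With median-ratio scaling the 3 h calls of Sqstm1, Txnip, Ccn2 and Cldn4 and the 6 h calls of Txnip and Hk2 were lost, and without the trend the 6 h call of Amotl2. The sterol list, with 2 members of 24, gave 1 fall at 6 h, in Lpin1, and the actin and respiratory chain lists were not analysed here.

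The late low genes reached the 2-fold limit only at 6 h. Hpgd, which inactivates prostaglandins (gene 15446, chr8:56294552-56321046), stood at 7.33, 4.28 and 0.97 FPKM. Its difference from 1 h missed the test at 3 h, and it fell by 2.08 ± 0.24 at 6 h (limma, adjusted p = 0.000592). The transferrin receptor Tfrc (gene 22042, chr16:32608896-32632794) stood at 99.6, 77.3 and 36.8 FPKM, with most of its fall, 1.05 ± 0.12, between 3 h and 6 h (adjusted p = 0.00461). Amacr, a racemase of branched fatty acid oxidation (gene 17117, chr15:10981756-10996624), stood at 45.4, 29.0 and 14.1 FPKM and fell by 1.62 ± 0.16 at 6 h (adjusted p = 0.00032). The heme oxygenase Hmox1 stood at 37.9, 30.5 and 15.4 FPKM, and Nrn1, a secreted neurite growth factor, at 36.3, 33.2 and 13.4 FPKM, both close to the 1 h level until 3 h.

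The genes that rose most included a pair of secreted proteases. Plat, tissue plasminogen activator (gene 18791, chr8:22757722-22782848), stood at 129.5, 329 and 455 FPKM. It rose by 1.34 ± 0.10 at 3 h and by 1.81 ± 0.10 at 6 h (limma, adjusted p = 0.000171 and 3.37e-05). Mmp10, a matrix metalloprotease, stood at 1.71, 6.50 and 6.49 FPKM and rose by 1.47 ± 0.24 at 3 h (adjusted p = 0.00531). Both belong to the fibrinolysis and protease list, of which 3 of 16 genes were analysed.

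Sdcbp2, a PDZ scaffold that binds syndecans (gene 228765, chr2:151572294-151590005), stood at 34.3, 79.0 and 117 FPKM and rose by 1.18 ± 0.14 at 3 h (adjusted p = 0.00111). The adhesion molecule Ceacam1 (gene 26365, chr7:25461702-25477647) stood at 18.3, 46.5 and 59.1 FPKM and rose by 1.30 ± 0.17 (adjusted p = 0.00163), with 37.5% of its 31-base words shared with other genes. Shpk, a kinase of sedoheptulose (gene 74637, chr11:73199132-73224511), stood at 4.33, 9.58 and 19.1 FPKM and rose by 1.91 ± 0.22 at 6 h (adjusted p = 0.000592). These 3 and Plat were highest at 6 h and lowest at 1 h, and of the 4 Plat and Shpk passed the test between 3 h and 6 h as well (adjusted p = 0.0299 and 0.0448; 0.11 and 0.0567 with median-ratio scaling, 0.173 and 0.0789 without the trend). Apobec1, an RNA-editing cytidine deaminase (gene 11810, chr6:122577792-122603024), stood at 14.4, 46.2 and 39.0 FPKM and had its highest level at 3 h. Zfp967 ranked high as well, at 0.03, 2.61 and 4.38 FPKM, but all its words occur in other genes, so its reads cannot be assigned with certainty.

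Other genes differed mainly between 3 h and 6 h or were highest at 3 h. Myh14, a nonmuscle myosin heavy chain, stood at 3.01, 4.28 and 10.6 FPKM and rose by 1.14 ± 0.23 between 3 h and 6 h (adjusted p = 0.0252; 0.0567 with median-ratio scaling). Rapgef3, a cyclic AMP sensor that activates Rap1, stood at 18.4, 12.5 and 30.6 FPKM and rose by 1.23 ± 0.21 between 3 h and 6 h (adjusted p = 0.014; 0.0647 without the trend). Rin1, a Ras effector, stood at 21.9, 21.4 and 46.0 FPKM. Cyp1a1, the oxidase induced by the dioxin receptor, dipped to 26.4 FPKM at 3 h and stood at 59.5 FPKM at 6 h, against 52.6 FPKM at 1 h. The transcription factors Elf3, of epithelia, and Creb5 were higher at 3 h than at either other time, at 42.9, 91.5 and 75.0 FPKM and at 0.36, 2.72 and 0.94 FPKM.

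**Figure D3:**
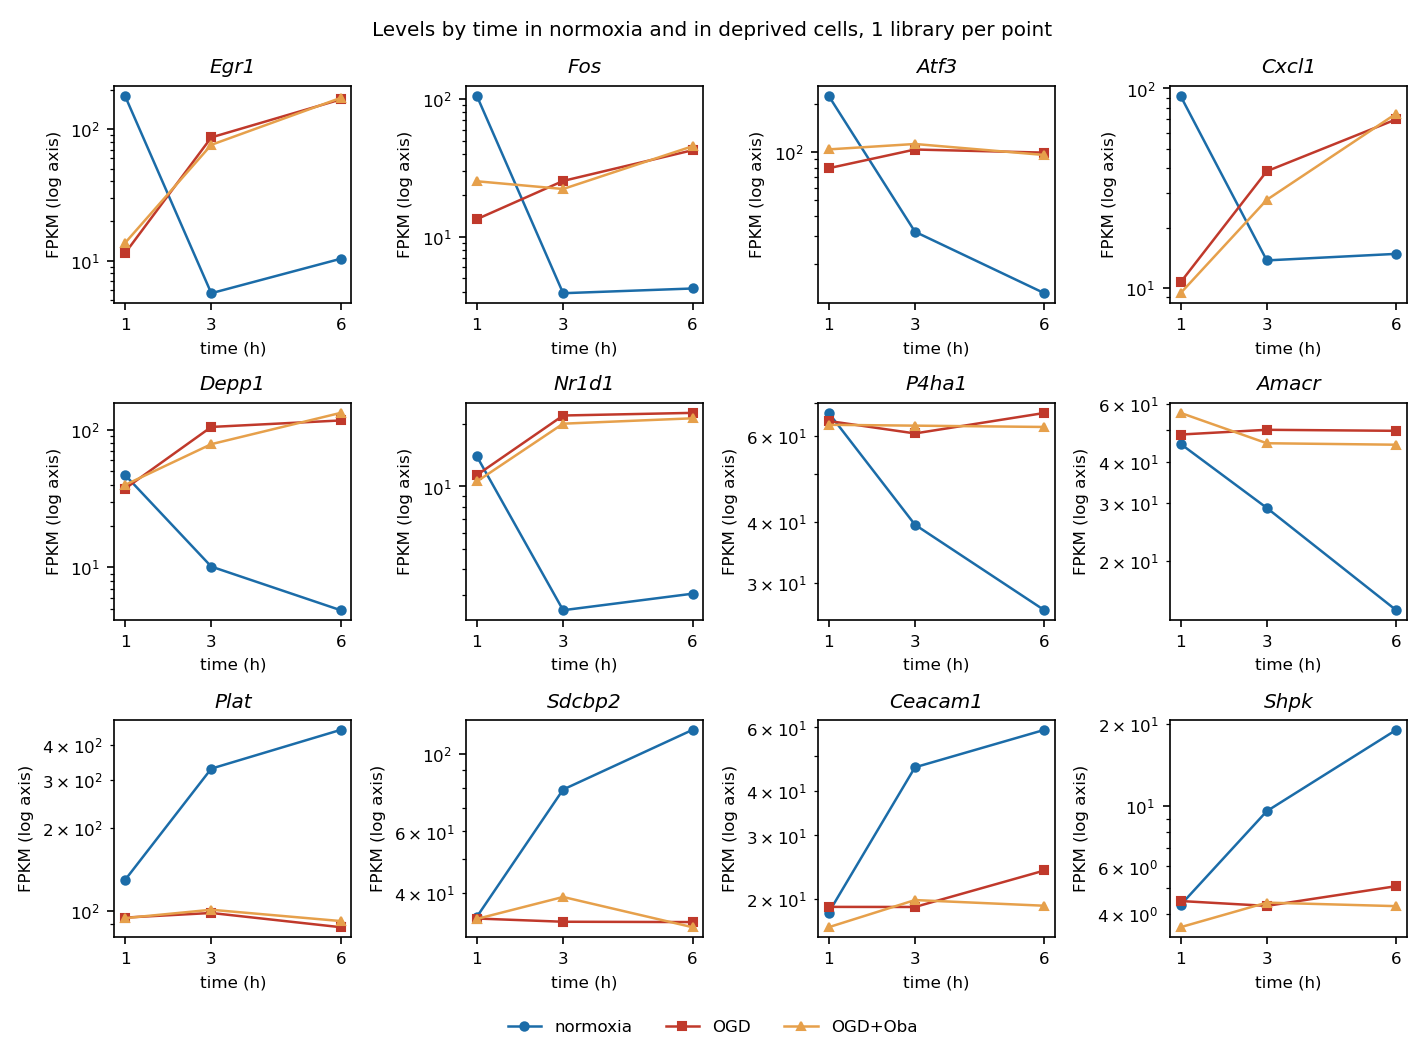
FPKM on log axes against time for 12 genes in normoxia (blue circles), OGD (red squares) and OGD+Oba (orange triangles), 1 library per point and a separate y range per panel. In normoxia Egr1, Fos and Cxcl1 are high at 1 h only and Plat, Sdcbp2, Ceacam1 and Shpk are highest at 6 h, while in both deprived arms Plat stays between 87.3 and 101 FPKM.

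The deprived arms show whether the same cells changed over the same hours without oxygen, glucose and serum. The change from 1 h to 3 h differed between normoxia and the deprived libraries for 215 of the 580 genes (37.1%) in limma, and the change from 1 h to 6 h for 492 (84.8%), a count that the choice of genes on the 6 h libraries inflates. Plat had 94.6, 98.3 and 87.3 FPKM in the OGD libraries, and 94.2, 101 and 91.9 FPKM in the OGD+Oba ones. The difference between its 3 h changes, normoxia minus deprived, was 1.26 ± 0.12 (adjusted p = 0.00015). Sdcbp2 and Ceacam1 likewise stayed near their 1 h levels, at 32.0 to 39.1 and 16.7 to 24.0 FPKM over the 6 deprived libraries, and Shpk at 3.59 to 5.08 FPKM. Of the 11 settled high genes, 6 stayed within 1.5-fold of their 1 h level in both deprived arms at 6 h, and of the 10 late high genes 9 did, against 168 of 580 analysed. These counts too are set in part by the choice of genes. A gene alike in both arms at 1 h that rose alike in them would not be 2-fold apart at 6 h, and so not listed. Chac1 is the case where the arms ran together at first, at 5.66 and 6.26 FPKM in the OGD and OGD+Oba libraries at 3 h, but stood at 1.71 and 1.61 FPKM at 6 h.

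Some falls in normoxia also had no counterpart under deprivation. Amacr had 48.5, 50.1 and 49.7 FPKM in the OGD libraries, and P4ha1 had 64.3, 60.6 and 66.8 FPKM. Among late low genes 15 of 37 stayed within 1.5-fold in both deprived arms at 6 h, while 14 were at least 2-fold higher there, Egln3 and Hmox1 among them. Among settled low genes these counts were 5 and 13 of 27, and over all genes 168 and 124 of 580. Both counts, and the lack of a like fall in Amacr and P4ha1, are set in part by the choice of genes. All late low and settled low genes are in the authors' up group at 6 h. A gene alike in both arms at 1 h that fell alike in them would not be 2-fold apart at 6 h, and so not listed. The differences at 3 h, normoxia minus deprived, were -7.37 ± 0.20 for Egr1 and -4.26 ± 0.24 for Cxcl1 (limma, adjusted p = 6.3e-07 and 1.79e-05).

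Some settled low genes already differed between the arms at 1 h. In 7 of 27 settled low genes (Egr1, Fos, Fosb, Atf3, Zfp36, Cxcl1 and Cxcl2) both deprived libraries at 1 h were at least 2-fold below normoxia at 1 h, against 13 of 580 genes analysed. Fos, for example, stood at 13.4 FPKM under OGD and 25.3 FPKM under OGD+Oba at 1 h, against 105.5 FPKM in normoxia. This count shares the normoxia 1 h library with the sets and is given as a description.

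**Figure D4:**
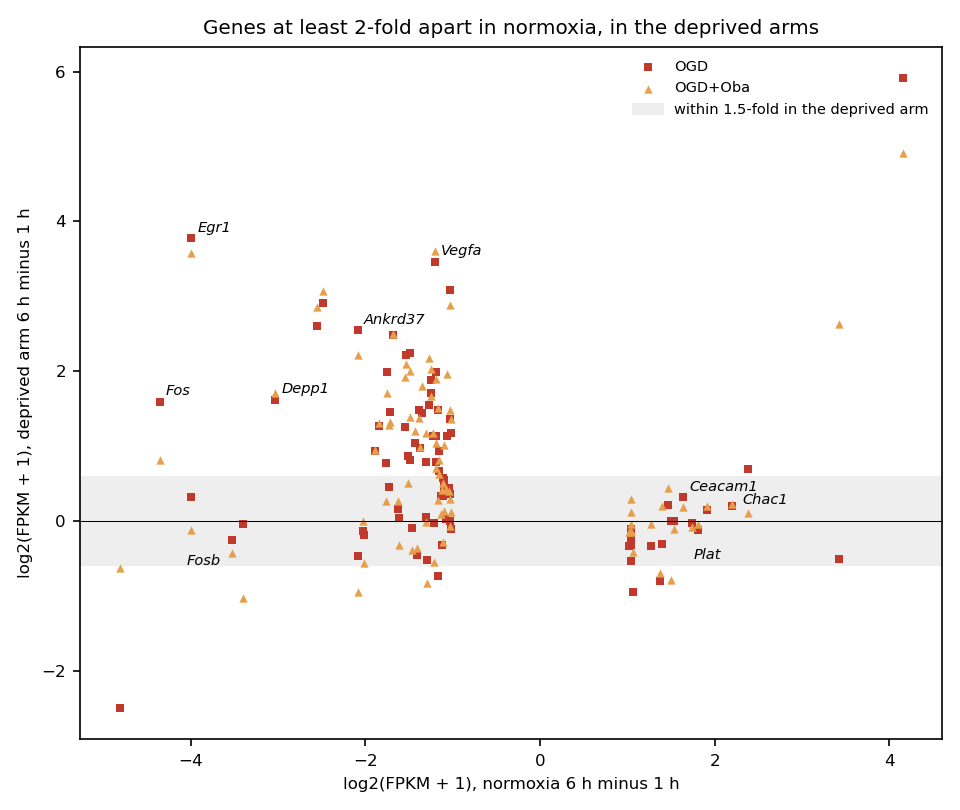
The 85 genes at least 2-fold apart between normoxia 6 h and 1 h, with that difference of log2(FPKM + 1) on the x axis and the same difference in OGD (squares) and OGD+Oba (triangles) on the y axis; the grey band marks 1.5-fold. Plat and Chac1 lie in the band and Egr1, Vegfa and Depp1 above it. The unlabelled points at the far right and far lower left are predicted genes with shared sequence.

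The direction in normoxia at 3 h differed between the authors' groups at 6 h, in whose choice neither the 1 h nor the 3 h library took part. Of the 316 genes that the authors' deposited table gives as up under OGD at 6 h, 78.2% had a lower level in the 3 h than in the 1 h normoxia library (56.9% of all genes did), 68 fell and 10 rose. Of the 264 given as down, 31.4% were lower, 6 fell and 23 rose. The medians were -0.30 and 0.15. All 27 settled low and all 37 late low genes were in the up group, and all 11 settled high genes in the down group, a count that the 6 h library takes part in.

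Gene structure was compared between the sets, in features that no expression value entered. Settled low genes had a median of 4 exons, against 7 over all genes matched to GENCODE M21, and 66.7% had 4 or fewer, against 33.7%. Their 3′ UTRs held a median of 2.53 ATTTA pentamers per kilobase, against 1.51, and those of late low, settled high and late high genes 2.03, 1.83 and 0.27. Counted per gene the order did not hold: 40% of settled low genes had 3 or more, against 43% of all, with shorter 3′ UTRs (median 774 bases, against 1252). Cxcl2 and Cxcl1 had 14.99 and 11.8 per kilobase, and Ier3 8.16, while Egr1 had 1.65. By the component terms in the deposited table's annotation, 77.8% of settled low genes carried a nucleus term and 64.9% of late low genes, against 42.1% of all; for settled high and late high genes the shares were 27.3% and 10%. Late low genes carried a mitochondrion term in 27% of cases, against 9.1%. These are counts over 10 to 37 genes and carry no test.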

How the data were processed

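RNA-seq was done on 9 libraries of MBMECs, 1 per group. Column-purified total RNA went into libraries for DNBSEQ sequencing, per the labels' protocols; HISAT2 2.0.4 and GRCm38 are named in the submitters' processing notes. The tool that gave FPKM is not given in the sources used here. The deposited table holds FPKM per library for 675 genes, per the file headers, and the authors' log2 ratios; no counts were used, so depth is unknown and no counting interval was computed.

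From the deposited FPKM, log2(FPKM + 1) was computed for the 580 genes whose mean reached 1 FPKM. Folds are on that scale, which understates the change of low genes. Counts of genes at least 2-fold apart carry no test. The limma 3.58.1 test (R 4.3.3, with trend, 2 residual and 5.48 prior degrees of freedom) fitted a mean for each time in normoxia and in the deprived arms and 1 obacunone effect, and Benjamini-Hochberg adjusted p over 580 genes at 0.05. The script was tested on simulated data. No label says that libraries came from separate cultures, so the spread may be technical.

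Members, lists and sets were chosen with earlier results of these data known. Named genes, predicted ones passed over, were the 10 highest and 10 lowest beyond 2-fold at 3 h and at 6 h against 1 h, the 5 highest and 5 lowest at 6 h against 3 h, up to 6 members of each list, and those next to the limit; further members were named after their values were seen. A gene's sequence sharing is the percent of its 31-base words found in other genes (GENCODE M21). Positions and promoters are from RefSeq GRCm38.p6. Alternatives were a 1.5-fold size, a floor of 5 FPKM or none, a pseudocount of 0.1, median-ratio scaling, no predicted genes, no trend, the robust option, no obacunone term and leaving out each deprived pair; dropping genes that share 50% or more of their words, and the sets under each setting, were added after seeing the data.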

Additional observations from a re-analysis of the deposited data

Results flagged for a closer look

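The genes here were named for their change in normoxia at 3 h, and that change differed from the one in the deprived libraries over the same hours in limma's interaction test at an adjusted p of 0.05. Values are log2 changes from 1 h to 3 h, normoxia minus deprived; 215 of 580 genes (37.1%) passed this test, so passing it is common in this table. The normoxia side rests on 1 library per time, and the deprived side on the OGD and OGD+Oba libraries together.

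The change, not the level, was lower in normoxia for Egr1 (-7.37), Cxcl2 (-4.834), Fos (-4.793), Cxcl1 (-4.259), Ier3 (-3.683), Depp1 (-3.325), Atf3 (-3.026), Nr1d1 (-2.958) and Fosb (-2.062). Fosb and Atf3 had low values in all deprived libraries or little change there, and most of their difference lies in the normoxia libraries. Fosb stood at 1.11 FPKM in normoxia at 3 h and 12.5 FPKM at 1 h, and at 0.73 and 1.70 FPKM under OGD at 3 h and 1 h.

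Ndrg1 (-2.164) and Trib3 (-1.182) rose in normoxia and were also higher at 3 h than at 1 h in both deprived arms, by more. Ndrg1 stood at 101 FPKM under OGD and 127 FPKM under OGD+Oba at 3 h.

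The change was higher in normoxia for Apobec1 (2.14), Zfp967 (1.774), Plat (1.261), Ceacam1 (1.18), Sdcbp2 (1.095) and Mmp10 (0.9617). All 31-base words of Zfp967 occur in other genes.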

How the results depend on the processing

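No paired analysis was possible because the labels give 1 library per group and no replicate numbers. Of 569 values under the alternatives for the genes with the highest and lowest differences, 543 kept their direction and their side of the threshold, 18 lost the call, 8 gained it (all H3c14) and none reversed. Their lost calls were those of Rapgef3, Cyp1a1, Myh14, Rin1, Ccl2, H4c9, Hpgd and Mxd1 at 6 h against 3 h, mostly with median-ratio scaling or without the trend, and that of Zfp967 at 3 h without the obacunone term (adjusted p = 0.0643). The cause was not tested. Of all 46 calls at 6 h against 3 h, 3 held with median-ratio scaling and 1 without the trend, so the other calls printed for that step, such as those of Egr1, Atf3, Egln3, Tfrc, Ndrg1, Ccng2, Plat and Shpk, were lost under both. Among further genes named in the text, median-ratio scaling ended the 3 h calls of Amacr, Ccn2, Cldn4, Cyp1a1, Dbp, Ddit4, Egln3, Gadd45b, Maff, Pmp22, Sgk1, Sqstm1, Stc1 and Txnip and the calls at 6 h against 1 h of Ccl2, Ddit4, Hk2, Junb, Sgk1 and Txnip. The 107 limma calls at 3 h against 1 h became 66 with median-ratio scaling, 66 without the trend and 169 without the deprived 3 h pair; 64, 62 and 107 were shared. The 46 calls at 6 h against 3 h became 3 with median-ratio scaling, 1 without the trend, 72 without genes that share words, 81 without the deprived 1 h pair and 112 without the deprived 3 h pair. At 1.5-fold, 136, 229 and 89 genes were apart at 3 h against 1 h, 6 h against 1 h and 6 h against 3 h, and 40 at 6 h against 3 h with a pseudocount of 0.1 (47, 85, 18 and 18 as reported). A floor of 5 FPKM left 2 dip, 5 settled high and 6 late high genes; a pseudocount of 0.1 gave 9 dip and 17 late high genes; median-ratio scaling gave 21 late low, 8 dip, 29 late high and 3 bump genes. The NRF2 and heme median at 3 h turned to 0.0069 with that scaling, and 17 other list medians moved in size but kept their sign. At 3 h the scaling moved the median of all genes by 0.06. Without counts, how far depth limits low genes is unknown, and genes near 1 FPKM, such as Dbp and Chac1 at 1 h, are the least certain.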
